A study of Equus caballus with 15 samples.

Results

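Cultures of equine macrophages held transcripts of a small set of genes better known from blood vessels. Of these, 10 are described here: ESM1, STC1, CDH5, PECAM1, FLT1, KDR, TEK, VEGFB, NRP1 and NRP2. The genes were chosen by symbol from the 16932 protein-coding genes of the table, and the choice was made with measured values in view, namely lower CDH5 and STC1 with IL-1ß and higher ESM1 with PRP lysate. Those differences are therefore given as description, with no p-value, and where such a gene is counted among those past the call rule the count describes the choice and is no support for it. The 15 libraries formed 5 conditions of 3 libraries each. Monocytes from the blood of 2 horses, aged 3 and 5 years, were grown for 5 days with 30 ng/ml macrophage colony-stimulating factor (M-CSF), and this step was shared by all 5 conditions. One condition was left untreated, and the other 4 received 10 ng/ml IL-1ß, a cytokine of joint inflammation, for 24 h. In 3 of these 4, an orthobiologic therapy (OT) made 25% of the medium: mesenchymal stromal cell conditioned medium (MSC-CM), platelet-rich plasma (PRP) lysate or autologous conditioned serum (ACS). Each OT came from 3 donor horses, aged 2 to 5 years, so its 3 libraries were biological replicates of the product, whereas the 3 untreated and the 3 IL-1ß libraries were described by the study as technical replicates. The p-values below carry the spread among these libraries and not that among macrophage donors, and the labels do not state which horse's macrophages each library held.

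Blood vessels are lined by endothelial cells, which hold together through VE-cadherin and PECAM-1 and are kept alive and guided by vascular endothelial growth factors (VEGF) and angiopoietins. VEGF ligands act through the tyrosine kinase receptors FLT1 and KDR, with neuropilins as co-receptors, and angiopoietins act through TEK (TIE2). Several of these genes are also used by monocytes and macrophages: FLT1 is their VEGF receptor, PECAM1 serves leukocytes as they cross the vessel wall, and a TEK-expressing monocyte population is known.

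On the EquCab3.0 assembly the secreted-protein genes ESM1 (ENSECAG00000013106) and STC1 (ENSECAG00000013731) lie on chromosome 21 from 17937098 to 17963310 and on chromosome 2 from 52762829 to 52775228. CDH5 (ENSECAG00000018507) spans 17706331 to 17738732 of chromosome 3, which also carries KDR (ENSECAG00000019429) from 79240767 to 79299346. PECAM1 (ENSECAG00000006991) lies on chromosome 11 from 15100589 to 15298316. FLT1 (ENSECAG00000021700) lies on chromosome 17 from 8029389 to 8201301, and TEK (ENSECAG00000016566) lies on chromosome 23 from 44581744 to 44683827. VEGFB (ENSECAG00000010539) covers the shortest stretch, from 28093622 to 28096365 of chromosome 12. The neuropilin genes are NRP1 (ENSECAG00000020753) on chromosome 29 from 5714325 to 5858786 and NRP2 (ENSECAG00000016824) on chromosome 18 from 80184623 to 80294563. None of the 10 overlapped another listed gene.

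Levels are given as deposited, in read counts scaled to library size (CPM), and are compared between conditions only, never between genes, because CPM is not divided by transcript length. The libraries held 28410735 to 47894069 reads, so that 1 read was worth 0.0209 to 0.0352 CPM, and all 10 genes passed the filter of a mean of 1 CPM. Fold changes are on the log2(CPM + 1) scale, which understates the change of low genes such as STC1. A gene was called when limma gave a Benjamini-Hochberg adjusted p of at most 0.05 over 11628 genes and a change of at least 2-fold. The 7 comparisons share libraries and are not independent of each other. Libraries IL-1ß 3, PRP lysate 1 and MSC-CM 1 were the lowest on the first principal component (-103, -51.7 and -20.7, against -8.15 to 26.6 in the other 12). They are named below as the 3 libraries that stood apart, although MSC-CM 1 lay near the rest.

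The cultures held transcripts of both macrophage and endothelial markers, and some endothelial ones were near 0. The summed level of 16 macrophage markers lay between 7278 and 17631 CPM in every library, mostly through CTSB, MRC1 and CD68 (means of 7899, 2109 and 1674 CPM). CD14, ITGAM and C1QB averaged 2.49, 2.36 and 4.42 CPM. The 18 listed endothelial markers summed to between 16.1 and 52.2 CPM. These sums hold different genes and are not set against each other. Of the 18 endothelial markers, 9 averaged at least 1 CPM (TEK, CDH5, TIE1, SOX18, PTPRB, EGFL7, KDR, PLVAP and ROBO4) and the other 9 averaged less. The sum of the 18 was 30.7 to 52.2 CPM untreated, 16.1 to 27.9 with IL-1ß and 21.4 to 32.9 with MSC-CM. It was 33.4 to 43.3 CPM with PRP lysate and 38.8 to 41.55 CPM with ACS. As description, all 9 tested, CDH5 among them, were higher than with IL-1ß in both (medians 0.55 and 0.58, against 0.11 and 0.13 over all genes), and 0 were called. VWF, the clotting factor stored by endothelium, had no read in 11 of 15 libraries and at most 8 reads in any. SOX17, a factor of arterial endothelium, had no read in 14 libraries, and ERG, a transcription factor of all endothelium, had none in 9. The macrophage sum was lowest with PRP lysate (7278 to 12019 CPM) and with ACS (10632 to 13525 CPM), against 13933 to 16749 CPM with IL-1ß alone. Within it CD163, a scavenger receptor for haemoglobin, averaged 563 ± 173 CPM (SD, n = 3) with IL-1ß, 64.6 ± 25.0 CPM with ACS and 11.4 ± 3.48 CPM with PRP lysate. T and NK cell markers were also present, at a median sum of 988 CPM in untreated, 1479 in IL-1ß, 1865 in MSC-CM, 1454 in PRP lysate and 1141 in ACS cultures. In bulk RNA, fewer cells of a type and less RNA per cell cannot be told apart, and the part of the cell mixture in the results below was not tested.

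**Figure D1:**
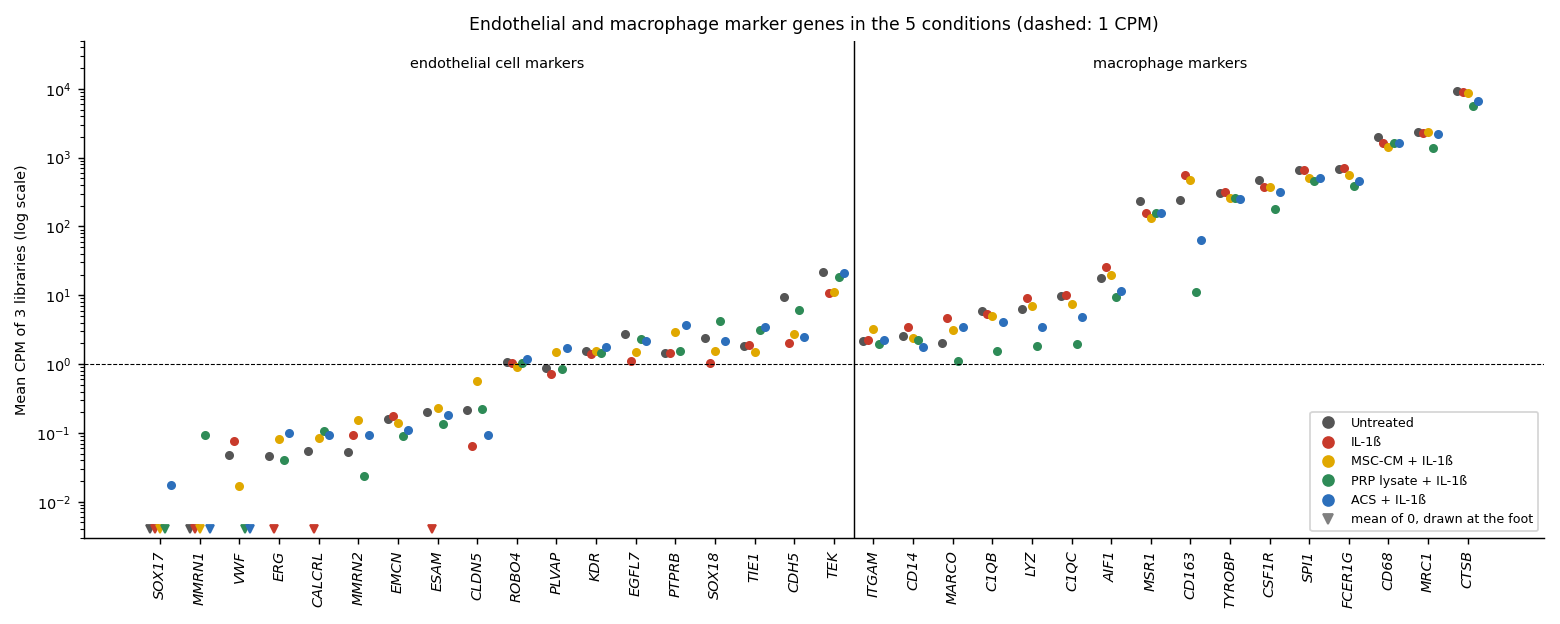
Mean CPM of 3 libraries on a log scale (y axis) for each endothelial marker (left) and macrophage marker (right) on the x axis, with 1 point per condition and a triangle at the foot where the mean was 0. Markers such as VWF, SOX17 and ERG sit below 0.2 CPM in every condition while TEK and CDH5 exceed 1 CPM, and CD163 spreads from 11.4 CPM with PRP lysate to 563 CPM with IL-1ß.

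ESM1 encodes endocan, a secreted proteoglycan made by activated endothelium. In untreated cultures it stood at 4.44, 5.02 and 7.996 CPM, and with IL-1ß at 1.89, 1.41 and 1.42 CPM. With MSC-CM the values were 2.20, 2.39 and 1.78 CPM, so the MSC-CM and IL-1ß libraries overlapped. PRP lysate gave 10.4, 16.4 and 20.6 CPM, and ACS gave 9.16, 10.7 and 6.26 CPM. Every PRP lysate and ACS library thus lay above every IL-1ß and every MSC-CM library, by 10.0 times with PRP lysate and 5.54 times with ACS over IL-1ß when means are compared. In the order of the means (PRP lysate, ACS, untreated, MSC-CM, IL-1ß) the neighbours overlapped except for untreated over MSC-CM. The comparison of libraries that the rule for ESM1 did not use was ACS with MSC-CM, in which ESM1 rose by 1.61 on the log2 scale (SE 0.267, adjusted p = 0.00759). That call was lost when ACS replicate 2 (ACS libraries carry no number in the labels and are numbered here in the order of deposit, adjusted p = 0.0564) or MSC-CM replicate 3 (adjusted p = 0.054) was left out.

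STC1 encodes stanniocalcin-1, a secreted glycoprotein hormone found in many tissues. It was low throughout, at 2.68, 2.27 and 3.34 CPM untreated and 0.195, 0.480 and 0.657 CPM with IL-1ß, the lowest of these being 7 reads. MSC-CM libraries were close together at 0.385, 0.437 and 0.421 CPM, inside the range of IL-1ß alone. With PRP lysate STC1 reached 1.61, 4.30 and 4.998 CPM and with ACS 4.94, 3.66 and 3.47 CPM, and neither group overlapped the IL-1ß or MSC-CM libraries. Against MSC-CM, STC1 rose by 1.63 on the log2 scale with PRP lysate (SE 0.275, adjusted p = 0.00418) and by 1.82 with ACS (SE 0.275, adjusted p = 0.00446). Both calls were kept when any 1 library was left out. PRP lysate and ACS did not differ detectably from each other (log2 difference -0.19, 95% interval -0.78 to 0.40).

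FLT1 is the VEGF receptor of monocytes and macrophages and also exists as a soluble decoy, which gene counts do not separate. Untreated libraries held 30.5, 36.6 and 40.6 CPM and IL-1ß libraries 36.0, 22.5 and 12.8 CPM, with overlap. MSC-CM libraries held 18.4, 29.8 and 27.7 CPM, and PRP lysate libraries 29.1, 68.2 and 64.4 CPM. ACS libraries held 95.2, 78.6 and 57.2 CPM and lay above every untreated, IL-1ß and MSC-CM library. With ACS, FLT1 rose by 1.74 on the log2 scale over IL-1ß (SE 0.374, adjusted p = 0.0237), from a mean of 23.8 ± 11.7 to 77.0 ± 19.1 CPM. This call held without IL-1ß replicate 1 (adjusted p = 0.00936) and was lost without IL-1ß replicate 2 or 3 (adjusted p = 0.0657 and 0.0663) and without ACS replicate 1, 2 or 3 (adjusted p = 0.092, 0.101 and 0.0505). Against MSC-CM the log2 difference with ACS was 1.57 (95% interval 0.76 to 2.37, adjusted p = 0.0527), just outside the threshold. It was called with median-ratio size factors (adjusted p = 0.0232), by DESeq2 (adjusted p = 0.000141), by edgeR (adjusted p = 0.0325) and without the 3 libraries that stood apart (adjusted p = 0.00255). It was not called with a pseudocount of 0.1 (adjusted p = 0.0587), with no filter (adjusted p = 0.0765) or in any of the 6 fits that left out 1 library (adjusted p from 0.0902 to 0.218). PRP lysate replicate 1 was the low library of its group, and FLT1 was called for PRP lysate over MSC-CM only in its absence among the single libraries left out (1.38, adjusted p = 0.038, against 1.00, adjusted p = 0.197, with it). DESeq2 called it with all libraries (adjusted p = 0.0154). Of 14 alternatives for PRP lysate over MSC-CM 11 did not call FLT1, and adjusted p ran from 0.00588 to 0.509.

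KDR, the main signalling VEGF receptor of endothelium, was close to the detection filter in every condition. Its values ran from 0.521 CPM in an MSC-CM library to 2.83 CPM in another MSC-CM library, a range that held those of all the other conditions. The fitted differences that were tested lay between -0.19 and 0.20 on the log2 scale, with 95% intervals that reached down to -0.97 and up to 0.98. VEGFB, a VEGF ligand that binds FLT1 but not KDR, was the steadiest member. Its values spanned 86.3 to 164 CPM over the 15 libraries, and condition means ran from 101 CPM with MSC-CM to 129 CPM with IL-1ß. Compared with IL-1ß, VEGFB differed by -0.33 with MSC-CM (95% interval -0.71 to 0.05) and by -0.26 with ACS (95% interval -0.64 to 0.12), and neither was called.

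NRP1, a co-receptor for VEGF and class 3 semaphorins, was lowest in the PRP lysate cultures. Untreated libraries held 72.7, 90.3 and 37.0 CPM, and IL-1ß libraries 105, 96.8 and 25.7 CPM, the last being the IL-1ß library that stood apart. MSC-CM libraries held 58.2, 59.9 and 90.6 CPM, PRP lysate libraries 2.23, 13.7 and 15.1 CPM, and ACS libraries 31.3, 28.7 and 23.0 CPM. Every PRP lysate library lay below every library of the other 4 conditions, and every ACS library lay below every untreated and MSC-CM library. Against MSC-CM, NRP1 fell by 2.92 on the log2 scale with PRP lysate (SE 0.611, adjusted p = 0.0153). The call was lost without MSC-CM replicate 3 (adjusted p = 0.0865), and without PRP lysate replicate 1 the change was -2.17 (adjusted p = 0.0287). Whether the numbers pair the PRP lysate and MSC-CM libraries was not settled. With a replicate block the adjusted p was 0.0887 over 12 libraries. Over these 2 groups alone, a fit added after seeing the data, it was 0.00304. With ACS the log2 difference was -1.28 against MSC-CM (adjusted p = 0.388) and -1.19 against IL-1ß (adjusted p = 0.267). Without the 3 libraries that stood apart these were called (-1.39, adjusted p = 0.011, and -1.84, adjusted p = 0.00227).

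NRP2, the related co-receptor that also binds VEGFC, did not follow NRP1. Its values were 129.5, 218 and 151 CPM untreated, 203, 131 and 32.7 CPM with IL-1ß, 83.1, 172 and 157 CPM with MSC-CM, 61.3, 219.6 and 173 CPM with PRP lysate and 172, 191 and 223 CPM with ACS. The lowest value of the IL-1ß, PRP lysate and MSC-CM groups came in each case from the library that stood apart. ACS libraries lay above every MSC-CM library, though the lowest (172.1 CPM) only just exceeded the highest of MSC-CM (171.9 CPM). The ACS difference from IL-1ß was 1.01 on the log2 scale (95% interval -0.26 to 2.27, adjusted p = 0.299). None of the tested comparisons was called for NRP2.

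**Figure D2:**
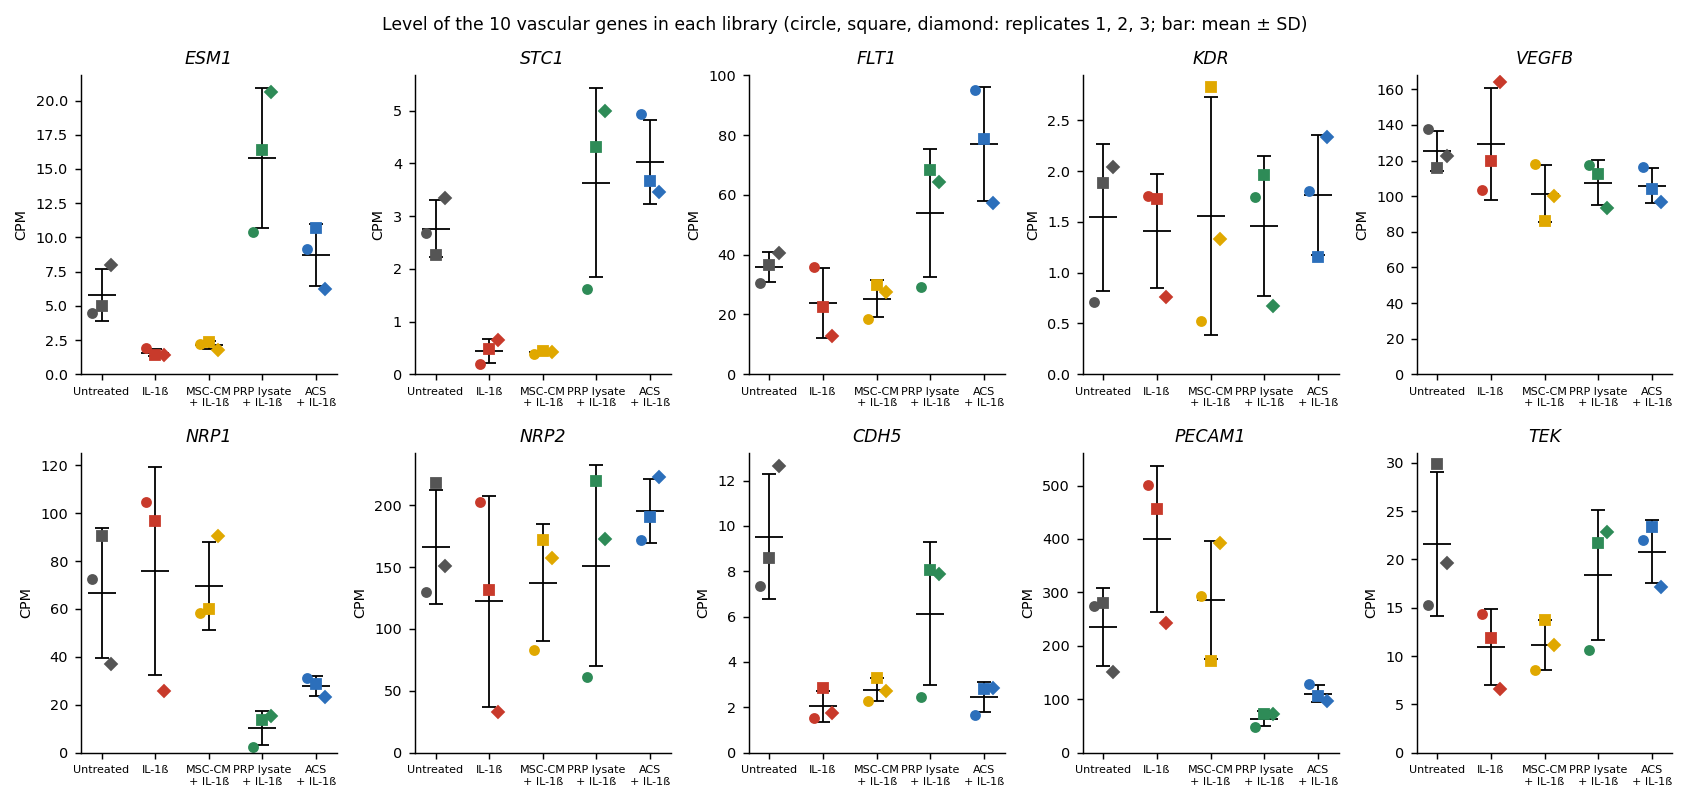
CPM of each of the 10 genes (1 panel each, y axis from 0) in each library of the 5 conditions (x axis); circle, square and diamond mark replicates 1, 2 and 3 (for ACS only names, given in the order of deposit), and the bar marks the mean ± SD (n = 3). ESM1 and STC1 are high in every PRP lysate and ACS library and low with IL-1ß and MSC-CM, whereas PECAM1 and NRP1 are lowest in the PRP lysate libraries.

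CDH5 encodes VE-cadherin, the adhesion molecule of endothelial adherens junctions. Untreated libraries held 7.36, 8.58 and 12.7 CPM, and IL-1ß libraries 1.53, 2.83 and 1.76 CPM, a 4.67-fold lower mean with no overlap. MSC-CM libraries held 2.29, 3.29 and 2.71 CPM, and ACS libraries 1.66, 2.82 and 2.84 CPM. Both groups overlapped IL-1ß alone, and every one of their libraries lay below every untreated library. With PRP lysate replicate 1 held 2.47 CPM, within the range of the MSC-CM libraries, while replicates 2 and 3 held 8.03 and 7.88 CPM. The log2 difference of PRP lysate was 0.80 against MSC-CM (95% interval 0.06 to 1.54, adjusted p = 0.283) and 0.95 against ACS (95% interval 0.20 to 1.69, adjusted p = 0.752), and neither was called. Without PRP lysate replicate 1 CDH5 was called over MSC-CM (1.26, adjusted p = 0.0151), and without all 3 libraries that stood apart it was called over MSC-CM (1.17, adjusted p = 0.0169) and over ACS (1.40, adjusted p = 0.0248).

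PECAM1 encodes CD31, which is shared by endothelium, platelets and leukocytes. It moved against ESM1 and STC1. Untreated libraries held 274, 280.2 and 151 CPM and IL-1ß libraries 500.4, 455 and 244 CPM, while MSC-CM libraries held 294, 172 and 392 CPM. PRP lysate libraries held 48.3, 71.7 and 71.3 CPM and ACS libraries 128, 106 and 96.3 CPM. All 6 of these lay below every library of the other conditions, and every PRP lysate library lay below every ACS library. Against MSC-CM, PECAM1 fell by 2.09 on the log2 scale with PRP lysate (SE 0.343, adjusted p = 0.00356), a call kept when any 1 library was left out. Against IL-1ß it fell by 1.79 with ACS (SE 0.343, adjusted p = 0.0134). That call was lost without IL-1ß replicate 2 (adjusted p = 0.0553), ACS replicate 2 (adjusted p = 0.0632) or ACS replicate 3 (adjusted p = 0.0645). Against MSC-CM the difference with ACS was -1.30 (adjusted p = 0.0822), which was called by DESeq2 (adjusted p = 0.00308), without MSC-CM replicate 2 (adjusted p = 0.0397) and without the 3 libraries that stood apart (adjusted p = 0.0232). T and NK cell markers, whose cells also carry CD31, summed to 1214 to 2614 CPM with PRP lysate and 1723 to 1875 CPM with MSC-CM. With ACS they summed to 1127 to 1486 CPM, below every MSC-CM library, and 12 of the 13 were lower than with IL-1ß (median log2 difference -0.42) and than with MSC-CM (median -0.64), where the medians of all genes were 0.13 and -0.04. In limma none of the 13 was called in any comparison. The 8 listed B cell markers summed to 21.6 to 44.8 CPM with PRP lysate and 45.7 to 49.3 CPM with MSC-CM. The platelet list summed to 136 to 397 CPM with PRP lysate and 132 to 181 CPM with MSC-CM, mostly through the integrin ITGB3. Of its 5 tested genes, PPBP, a platelet chemokine, rose with PRP lysate over MSC-CM from 4.97 ± 0.720 to 27.2 ± 14.8 CPM (log2 change 2.06, adjusted p = 0.0103). PPBP averaged 1.97 CPM untreated, 11.5 CPM with IL-1ß and 11.6 CPM with ACS, and was not called for PRP lysate over IL-1ß. Against MSC-CM, SELP, an adhesion molecule of platelet granules and endothelium, fell with PRP lysate from 27.6 ± 2.97 to 3.68 ± 0.527 CPM (-2.61, adjusted p = 0.000228). The platelet-defining GP9 had at most 12 reads in any library and CLEC1B 1 read in all. The part of these cells in the PECAM1 result was not tested.

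TEK, the angiopoietin receptor TIE2, stood at 15.3, 29.9 and 19.6 CPM untreated and at 14.3, 11.8 and 6.57 CPM with IL-1ß, a lower level in every library. MSC-CM libraries held 8.58, 13.7 and 11.1 CPM, PRP lysate libraries 10.7, 21.7 and 22.8 CPM, and ACS libraries 22.0, 23.3 and 17.1 CPM. Every ACS library lay above every IL-1ß and MSC-CM library. The fitted differences were 0.92 against IL-1ß (95% interval 0.20 to 1.65, adjusted p = 0.161) and 0.86 against MSC-CM (95% interval 0.13 to 1.58, adjusted p = 0.27), and neither passed the threshold.

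**Figure D3:**
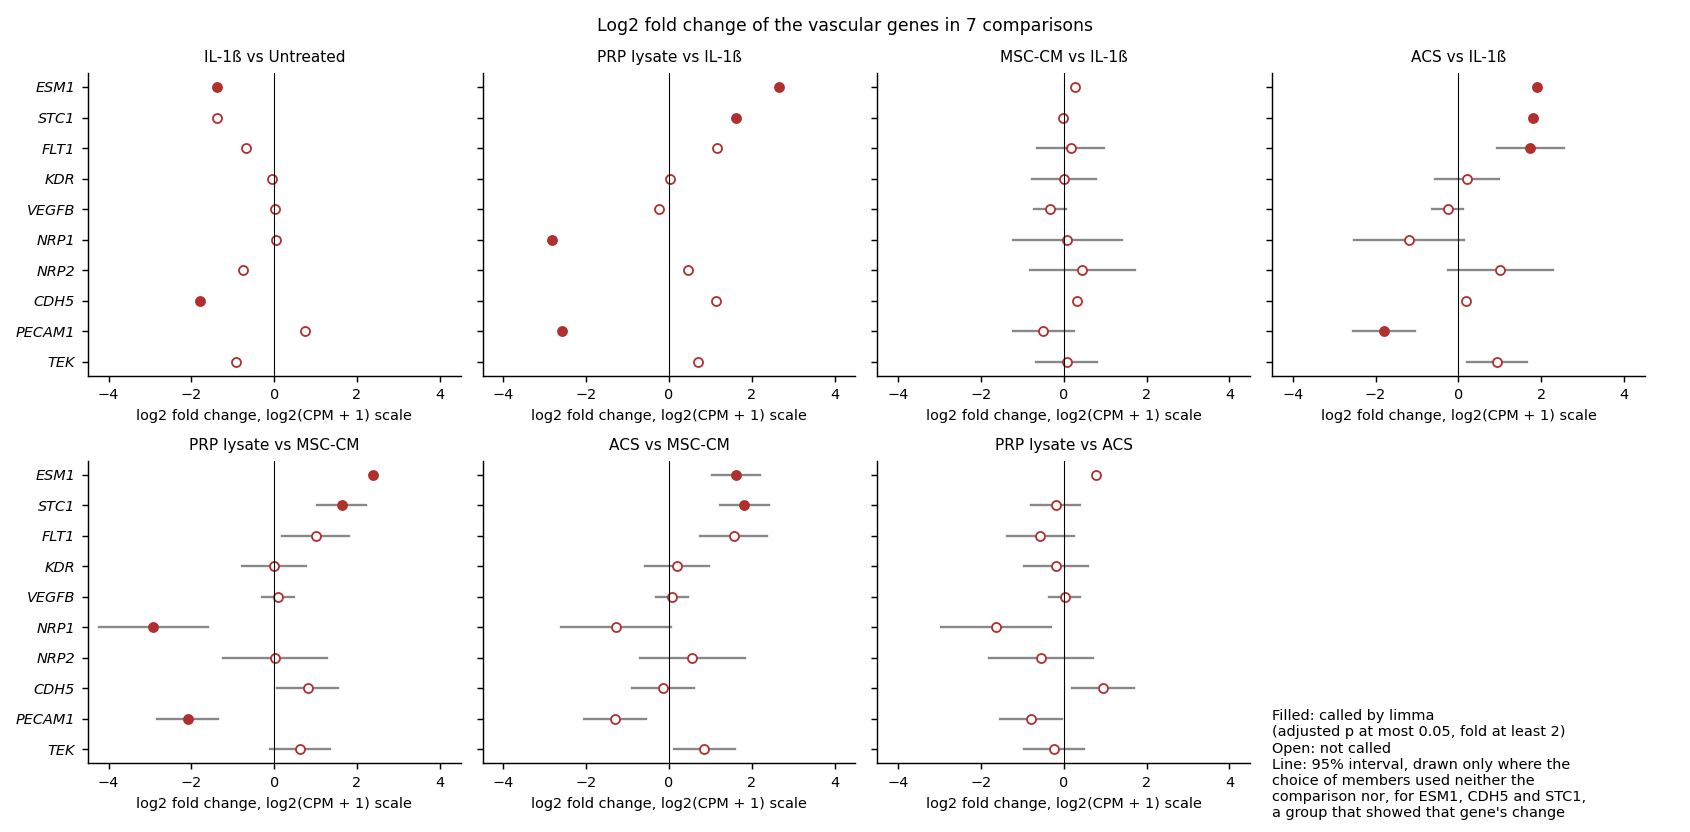
Log2 fold change on the log2(CPM + 1) scale (x axis) of each gene (y axis) in 7 comparisons; filled points were called by limma, open points were not, and lines are 95% intervals, drawn only where the choice of genes had not used the comparison. STC1 lies to the right and PECAM1 and NRP1 to the left in the PRP lysate panels against IL-1ß and MSC-CM, and no gene is called for MSC-CM against IL-1ß or PRP lysate against ACS.

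Counted over the 10 genes, IL-1ß alone stood below untreated cultures more often than above. CDH5 and ESM1 were past the thresholds of the call rule, STC1 and TEK were also lower in every library, and none was higher in every library. The median log2 difference of the genes was -0.72, against -0.07 over all genes. Of all tested genes 0.292% were called and 16.2% did not overlap between the groups. Since this comparison chose CDH5 and STC1, nothing is read from those counts. The count of 2 became 0 when any of the 6 libraries was left out, with no filter on low genes and with the replicate block. PRP lysate against IL-1ß was used for the choice as well. It held ESM1 (2.66 on the log2 scale) and STC1 (1.61) above, and PECAM1 (-2.59) and NRP1 (-2.83) below, with 4 of the 10 genes past the call rule and 4 not overlapping. Over all genes the shares were 3.09% called and 15% not overlapping, and nothing is read from the counts here either.

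With MSC-CM the libraries of each of the 10 genes overlapped those of IL-1ß alone, although single libraries lay outside the IL-1ß range, such as ESM1 at 2.20 and 2.39 CPM above it and VEGFB at 86.3 and 99.8 CPM below it. Of the 10 genes 0 were called by limma, 0 had an unadjusted p of at most 0.05 and 0 were called by DESeq2 or edgeR. Over all genes 0% were called, 651 had an unadjusted p of at most 0.05, and 8.79% did not overlap, against 0 of the 10 genes. Among the 7 genes tested here, a change of over 2-fold lay inside the 95% interval of NRP1 in either direction (-1.23 to 1.41 on the log2 scale), of NRP2 upward (-0.82 to 1.71) and of PECAM1 downward (-1.23 to 0.25). With CPM shares the median of all genes lay at 0.16 on the log2 scale in this comparison, at 0.13 for ACS and at 0.11 for PRP lysate against IL-1ß. Median-ratio size factors, which bring such medians near 0 by construction, gave 0.00, 0.02 and 0.02.

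For ACS against IL-1ß 4 of the 10 genes were past the call rule (ESM1, STC1 and FLT1 higher, PECAM1 lower), where 2.21% of all genes were. ESM1 and STC1 count there on the IL-1ß libraries that the choice of genes had used, whereas the rule named no change of FLT1 or PECAM1, although all 10 genes were listed with earlier results known. In this comparison 5 of the 10 did not overlap, where 26.2% of all genes did not. Against MSC-CM, PRP lysate had 4 members past the call rule (ESM1, STC1, PECAM1 and NRP1) and 4 not overlapping, with 2.61% of all genes called and 19.4% not overlapping. ESM1 is among these 4 on the PRP lysate libraries for which it was chosen, and the rule named no PRP lysate change of the other 3. ACS against MSC-CM had 2 called (ESM1 and STC1) and 7 not overlapping (ESM1, STC1, FLT1, TEK and NRP2 higher, PECAM1 and NRP1 lower), with 1.23% called and 35.1% not overlapping over all genes. Between PRP lysate and ACS 0 of the 10 were called by limma, DESeq2 or edgeR, and 4 had an unadjusted p of at most 0.05, as had 603 of all genes. These were CDH5, at the higher level with PRP lysate given above, ESM1, whose log2 difference of 0.77 is description, and PECAM1 and NRP1. PECAM1 and NRP1 were lower in every PRP lysate library than in any ACS library, at log2 differences of -0.79 (95% interval -1.53 to -0.05) and -1.64 (95% interval -2.96 to -0.32). Over all genes 0.0946% were called there and 15.6% did not overlap.

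**Figure D4:**
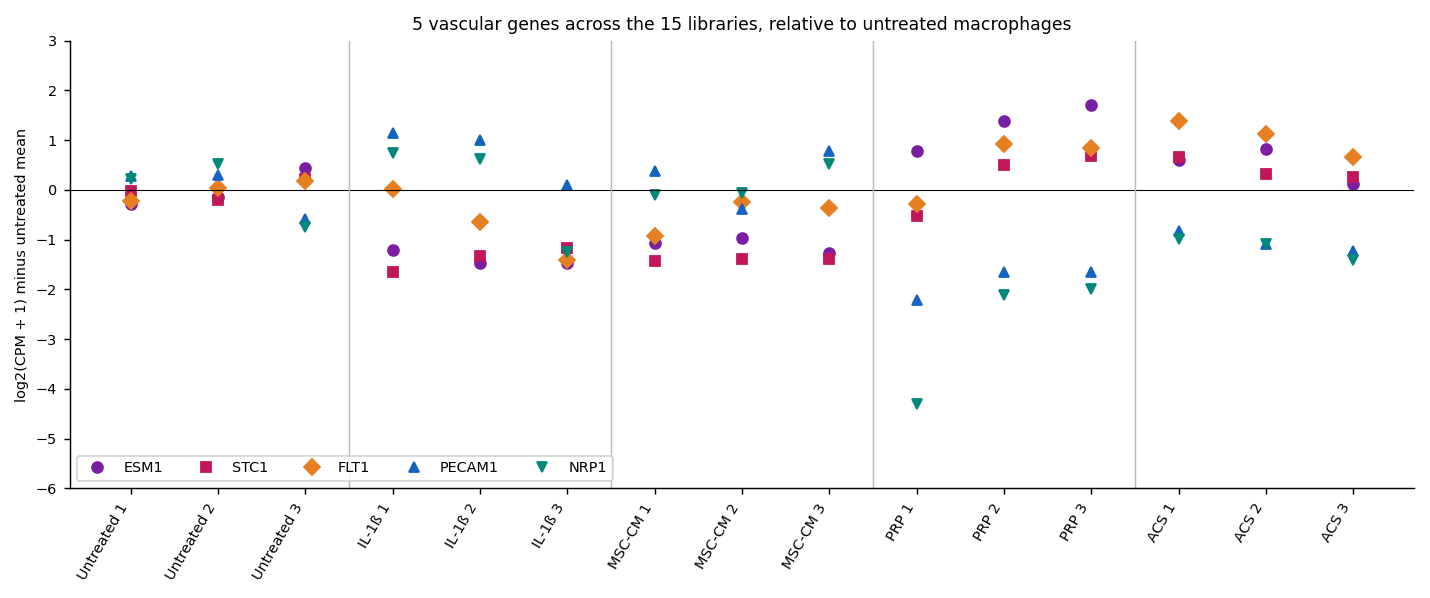
Level of ESM1, STC1, FLT1, PECAM1 and NRP1 in each of the 15 libraries (x axis, grouped by condition) as log2(CPM + 1) minus the mean of the untreated libraries (y axis); each point is 1 library. In the ACS group ESM1, STC1 and FLT1 lie above 0 and PECAM1 and NRP1 below it in all 3 libraries, and NRP1 of PRP lysate replicate 1 is the lowest point.

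Other genes of the same pathways were counted over lists of pathway genes. Of 10 VEGF ligands and receptors 7 were tested, and 2 of them were not among the 10 genes. VEGFC, a ligand of lymphatic vessels, rose with PRP lysate over MSC-CM, from 2.46 ± 0.102 to 9.24 ± 4.70 CPM (log2 change 1.43, SE 0.367, adjusted p = 0.0462), and with ACS over IL-1ß, from 1.97 ± 0.874 to 9.20 ± 1.70 CPM (1.81, adjusted p = 0.0179). VEGFA, the principal angiogenic ligand, averaged 7.64 CPM untreated, 19.1 CPM with IL-1ß, 22.6 CPM with MSC-CM, 8.29 CPM with PRP lysate and 11.7 CPM with ACS, and it was called in none of the 7 comparisons. FLT4, the receptor that VEGFC uses on lymphatic endothelium, had no read in 12 libraries and at most 3 in any. The ligand PGF had no read in 14.

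In the angiopoietin and TIE list 5 of 10 genes were tested. ANGPTL4, an angiopoietin-like inhibitor of lipoprotein lipase that does not bind TEK, rose over MSC-CM with PRP lysate (52.7 ± 7.79 to 277 ± 49.6 CPM, log2 change 2.37, adjusted p = 0.000641) and with ACS (to 149 ± 35.4 CPM, 1.46, adjusted p = 0.0253). The TEK ligands ANGPT1 and ANGPT2 were below the filter on the mean over all libraries and were not tested. ANGPT2 averaged 0.137 CPM untreated, 0.124 CPM with MSC-CM, 1.27 ± 0.748 CPM with PRP lysate and 0.288 CPM with ACS, and was at 0 in the 3 IL-1ß libraries. Of 12 tested semaphorins and plexins 1 was called, PLXNC1, a receptor for semaphorin 7A, which fell by 1.93 on the log2 scale with PRP lysate against MSC-CM (adjusted p = 0.03), a comparison in which 2.61% of all genes were called.

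Of 19 junction proteins 16 were tested, including CDH5 and PECAM1. Against MSC-CM the tight-junction adhesion molecules JAM2 and F11R (JAM-A) were called higher with PRP lysate, while PECAM1 was the 1 called lower. Of the 16, 9 were higher, and their median was 0.18 against -0.09 over all genes. JAM2 went from 14.02 ± 1.33 to 46.5 ± 11.9 CPM (log2 change 1.63, adjusted p = 0.000445). F11R went from 8.90 ± 0.248 to 28.8 ± 7.83 CPM (1.55, adjusted p = 0.00396). With ACS over MSC-CM, JAM2 and F11R were called (1.47, adjusted p = 0.00245, and 1.40, adjusted p = 0.0139), and with ACS over IL-1ß JAM2, F11R and JUP (plakoglobin, a catenin) were called as well.

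Of 9 tested Notch genes DLL1, a Notch ligand, fell with ACS against IL-1ß, from 4.53 ± 2.76 to 0.187 ± 0.101 CPM (log2 change -2.06, adjusted p = 0.0202). Of 14 tested transcription factors KLF2, a flow-responsive factor that is also active in monocytes, fell with ACS from 83.3 ± 44.1 CPM with IL-1ß and 89.4 ± 8.05 CPM with MSC-CM to 22.0 ± 0.526 CPM (-1.74, adjusted p = 0.0421, and -1.97, adjusted p = 0.0351). Of 8 tested angiogenesis inhibitors and matrix genes, TIMP3, a metalloproteinase inhibitor that blocks VEGF binding to KDR, averaged 71.4 ± 17.5 CPM untreated and 27.7 ± 4.04 CPM with IL-1ß. It rose over MSC-CM with PRP lysate (1.70, adjusted p = 0.000621) and with ACS (2.52, adjusted p = 0.000293). COL4A2, a basement membrane collagen, fell with PRP lysate against MSC-CM, from 4.20 ± 0.702 to 0.867 ± 0.861 CPM (-1.59, adjusted p = 0.0141).

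Genes whose levels ran most like a member's were ranked by Pearson's r of log2(CPM + 1) over the 15 libraries, which share conditions and the libraries that stood apart. These include the libraries by which ESM1, CDH5 and STC1 were chosen. All r values are therefore description, and those among these genes follow in part from the choice. For ESM1 these were JAM2 (r = 0.959), SPINT1 (0.949), CCNH (0.948), F11R (0.948) and GIPR (0.945). For STC1 they were F3 (r = 0.958), which encodes tissue factor, then JAM2 (0.951), ST8SIA5 (0.943), MHCB3 (0.931) and OCSTAMP (0.930), a gene of multinucleated osteoclasts. JAM2 stood in both. For CDH5 the highest were SYT12 (r = 0.883), RAB7A (0.881), VGF (0.869), AEN (0.867) and CD300LB (0.856), none of which was in the lists for ESM1 or STC1. Without the 3 libraries that stood apart these lists changed. Over the other 12 libraries, JAM2 and F11R ranked 3 and 4 for ESM1, while SPINT1, CCNH and GIPR ranked 16, 24 and 20. For CDH5, VGF and SYT12 ranked 1 and 4, and RAB7A, AEN and CD300LB ranked 12, 15 and 35. For STC1, MHCB3 and JAM2 ranked 1 and 2, and OCSTAMP, F3 and ST8SIA5 ranked 6, 7 and 9. Among the 10 genes, ESM1 ran most like STC1 (r = 0.898) and most opposite to PECAM1 (r = -0.865), while CDH5 reached at most 0.575, with TEK. Without the 3 libraries that stood apart, r of ESM1 over the other 12 was 0.926 with STC1, -0.903 with PECAM1 and -0.909 with NRP1, the last being -0.677 over all 15.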

How the data were processed

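RNA was read from poly(A)-selected libraries (paired 150-base reads). The authors trimmed reads at Phred 20 in Partek Flow, removed adapters with cutadapt, aligned to EquCab3.0 (Ensembl 107) with STAR 2.7.3, counted genes with HTSeq and deposited counts scaled to library size (CPM) for 16932 protein-coding genes. The strand setting is not given in the sources used here. Whether the cells were cultured for 24 h more after washing differs between the labels and the study's methods. Each CPM value was a whole multiple of 1 read (100% within 0.05 read, or within the printed precision for large counts), which gave the depths. Columns of the table each matched 1 sample, and groups came from the labels.

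The test was limma 3.58.1 (R 4.3.3) with a trend on log2(CPM + 1), all 15 libraries in 1 model without a covariate, over 11628 genes averaging 1 CPM or more, with Benjamini-Hochberg adjustment, two-sided. Alternatives were median-ratio size factors, a pseudocount of 0.1, no filter, DESeq2 1.42.0 and edgeR 4.0.16 on the recovered reads, a replicate block, leaving out each library and leaving out the 3 libraries that stood apart. The fits were tested on simulated data. Counting error limits each value, and STC1 rests on as few as 7 reads. The members and gene lists were chosen with earlier results of these data known. Named genes are the members in every condition, the 5 genes most alike each of ESM1, CDH5 and STC1, and list genes called in a comparison, up to 3 a direction, except for a result that is not reported here. Named besides, after their values were seen, were the other endothelial markers and ligands VWF, SOX17, ERG, FLT4, PGF, ANGPT1, ANGPT2, TIE1, SOX18, PTPRB, EGFL7, PLVAP and ROBO4, the platelet genes ITGB3, GP9 and CLEC1B, the macrophage markers CTSB, MRC1, CD68, CD14, ITGAM and C1QB, and VEGFA.

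Replicate numbers in the labels were checked by correlating the deviations of equal-numbered libraries from their group means. Those of PRP lysate and MSC-CM correlated at 0.635, 0.255 and 0.419. Replicate 1 stood apart in both groups, and unequal numbers were not compared. Whether the numbers pair these groups was therefore not settled. Other pairs ran from -0.775 to 0.590, and ACS libraries carry no number in the labels, so theirs follow the order of deposit and pair nothing. Python 3.11.15, pandas 2.3.3 and matplotlib 3.10.9 were used for tables and plots.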

Additional observations from a re-analysis of the deposited data

How the results depend on the processing

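Of 90 alternatives of the 7 calls on values that the choice of genes had not used, 78 kept the call and 12 lost it, and 0 reversed it. Counts of the 10 genes called moved as follows. For IL-1ß against untreated, 2 became 0 without the filter on low values and 0 with the replicate block, and leaving out any library gave 0 to 0, while DESeq2 and the fit without the 3 libraries that stood apart gave 3, STC1 being the addition. For PRP lysate against IL-1ß, 4 became 3 with the replicate block and 6 by DESeq2 and without the 3 libraries that stood apart, CDH5 and FLT1 being added. For PRP lysate against MSC-CM 4 became 3 with the block over 12 libraries and stayed at 4 with the block over these 2 groups, a fit added after seeing the data. There DESeq2 added FLT1, and the fit without the 3 libraries that stood apart added CDH5. The block changed no other call. No pairing of libraries by number was settled. Leaving out 1 library gave 3 to 6 in both of those comparisons, 2 to 4 for ACS against IL-1ß (main count 4) and 1 to 3 for ACS against MSC-CM (main count 2). For ACS against MSC-CM, DESeq2 called 4 and the fit without the 3 libraries that stood apart called 5, and for PRP lysate against ACS that fit called 1, CDH5. The cause of these moves was not tested, apart from there being fewer samples where libraries were left out. Of 684 alternatives of members that were not called, 25 gave a call and 71 changed the sign of the uncalled value. Depth limits STC1 and KDR most, with as few as 7 and 19 reads in a library.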
